A study of Mus musculus with 2 samples.

Results

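Paraspeckles are nuclear bodies built on the long noncoding RNA Neat1. The genes described here are the RNA scaffold Neat1 and 5 proteins of these bodies or of the complex that holds inosine-containing RNA in the nucleus: Sfpq, Nono, Pspc1, Matr3 and Hnrnpk. They were chosen by name for this role, with earlier results of these data known, and all 6 were found among the 24015 genes of the expression table. ADAR enzymes turn adenosine into inosine in double-stranded RNA. RNA with many inosines is known to be bound by a complex of NONO, SFPQ and matrin 3, and such RNA can stay in the nucleus. SFPQ, NONO and PSPC1 form the DBHS family, whose dimers coat Neat1, and hnRNP K is among the proteins without which paraspeckles are lost in human cells.

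The cells were mouse embryonic fibroblasts, connective tissue cells grown from embryos and kept in DMEM with 10% serum and antibiotics. One culture was labelled Adar2-KO (genotype Adar2-/-) and one Adar2-WT (genotype Adar2+/+), with 1 poly(A)+ RNA-seq library each, so no difference below has a replicate check, and the intervals hold the error of counting alone. The labels do not give the deleted exon, the embryos behind each culture or the passage. Expression is given as RPKM, that is reads relative to gene length and library size, and edited sites as reads with the mismatch over all reads at the site.

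Adarb1, the gene of ADAR2, was higher in the library labelled KO (25.8 RPKM) than in the library labelled WT (18.4 RPKM). Such a whole-gene level is no check on the loss of single exons, so the libraries are called KO-labelled and WT-labelled. The values rested on 9546997 reads in the KO-labelled library and 9446911 in the WT-labelled library. Fibroblast markers were present in both: 9 genes summed to 533 RPKM in the KO-labelled and 494 RPKM in the WT-labelled library. Both sums include Thy1 (72.1 and 9.40 RPKM), whose difference was larger than that of the sums. Another 16 genes mark other cells. Of the leukocyte markers, Cd68 stood at 7.40 RPKM in the KO-labelled and 5.15 RPKM in the WT-labelled library, Ptprc at 0 and 0.0747 RPKM, and Emr1 at 0 in both. The 4 epithelial markers summed to 1.12 and 2.04 RPKM, most of it Krt8 in the KO-labelled library (1.04 RPKM) and Cdh1 in the WT-labelled library (1.80 RPKM), and Epcam was at 0 and 0.103 RPKM. The 3 endothelial markers summed to 0.275 and 1.61 RPKM, and the muscle markers to 0.342 and 0.760 RPKM with Myod1 at 0 in both. Of the pluripotency markers, Nanog stood at 3.08 and 0.850 RPKM and Pou5f1 at 0.0726 and 0.0734 RPKM. Map2, a neuronal marker, stood at 15.8 and 32.7 RPKM, while the other neuronal marker, Rbfox3, was at 0 in both. The part of these markers in the differences below was not tested.

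Neat1 lies on chromosome 19 (chr19:5824708-5845478, minus strand, GRCm38). It is made in a short form that ends at a polyadenylation signal and a long form that reads through it. The long form is the one known to build paraspeckles, and its end is cut by RNase P and has no added poly(A) tail. The length behind the authors' RPKM could be recovered from the printed digits, and for Neat1 it was 3177 bases. The GENCODE transcript of the long form has 20771 bases, so the counted length was 15.3% of it. The transcript of the short form has 3004 bases after removal of an intron. Counted from the first base of the long transcript, a polyadenylation hexamer AATAAA starts at base 3153. Which bases were counted is not given. If they ran from that first base, the counted length would end 19 bases after this hexamer. The last 30 bases of both transcripts are shown because they separate the form that poly(A) selection captures from the one it may miss, with the hexamer in capitals.
Neat1 short form, chr19:5842307-5842336, minus strand: tttacagcaaAATAAAggtttgagattgaa
Neat1 long form, chr19:5824708-5824737, minus strand: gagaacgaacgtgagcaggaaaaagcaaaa
The hexamer was searched on the transcript strand only. It was present in the last 30 bases of 27.1% of 9101 GENCODE lincRNA transcripts and of 35.5% of 58793 protein-coding transcripts. The long form's last 30 bases lacked these letters. A read over the first part of the gene can come from either form, and the 1 value per library given for Neat1 does not tell short from long. In bulk RNA, fewer cells making an RNA and less of it per cell cannot be told apart.

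**Figure D1:**
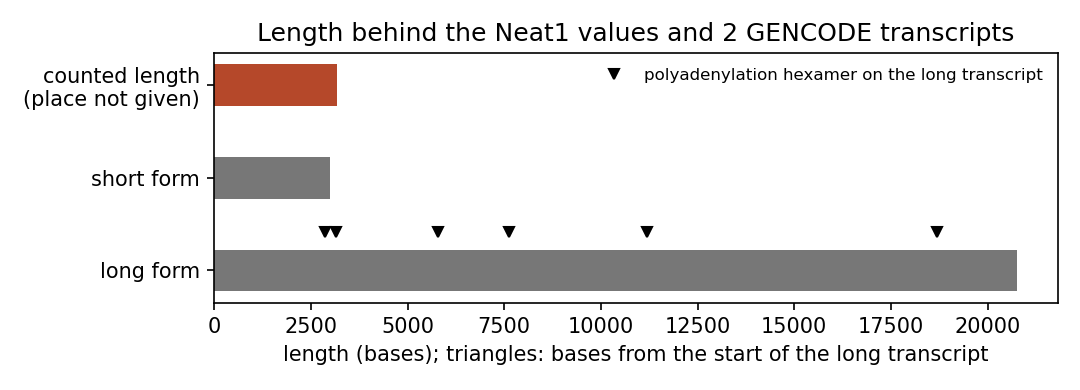
Length in bases behind the authors' Neat1 values (3177; its place in the gene is not given), of the short GENCODE transcript (3004) and of the long one (20771). Triangles mark the 6 polyadenylation hexamers of the long transcript by their distance from its first base, and the counted length is close to that of the short form.

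Neat1 had 58.4 RPKM in the KO-labelled library, from 1772 reads, and 70.4 RPKM in the WT-labelled library, from 2112 reads. The level in the KO-labelled library was 0.830 times that in the WT-labelled library, and the log2 ratio of reads was -0.27 with an exact 95% interval of -0.36 to -0.18. Neat1 was the member with the largest difference, but the size was ordinary: 33.8% of the 10375 genes that reached 10 RPKM in either library had a larger absolute log2 ratio on the scale of RPKM + 1. The authors' deposited table gives Neat1 a log2 fold change of -0.22 and a GFOLD value, which is shrunken toward 0 for counting error, of -0.11. 

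Sfpq encodes the splicing factor of the DBHS family that Neat1 sequesters and that also represses and activates transcription. It lies on chromosome 4 (chr4:127021324-127037013, plus strand, GRCm38) and had 51.3 RPKM in the KO-labelled library, from 1815 reads, and 44.3 RPKM in the WT-labelled library, from 1552 reads. The log2 ratio of reads was 0.21 (0.11 to 0.31), the opposite direction to that of Neat1, and the GFOLD value in the authors' deposited table was 0.15. 

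Nono encodes the DBHS partner that carries the inosine RNA binding of the retention complex (chrX:101429318-101448591, plus strand, GRCm38). It had 52.4 RPKM (1235 reads) in the KO-labelled and 49.9 RPKM (1164 reads) in the WT-labelled library, a log2 ratio of reads of 0.07 (-0.05 to 0.19) that counting error could span. 

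Pspc1, the third DBHS gene, whose protein gave paraspeckles their name (chr14:56720710-56778316, minus strand, GRCm38), had 44.3 RPKM (1004 reads) in the KO-labelled and 49.2 RPKM (1103 reads) in the WT-labelled library. Its log2 ratio of reads was -0.15, and the interval of -0.28 to -0.03 came close to 0. The authors' deposited table gives Pspc1 a GFOLD value of 0.

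Matr3 encodes matrin 3, a nuclear matrix protein of the retention complex (chr18:35562138-35593835, plus strand, GRCm38). It had 38.8 RPKM (1655 reads) in the KO-labelled and 37.9 RPKM (1603 reads) in the WT-labelled library, with a log2 ratio of reads of 0.03 (-0.07 to 0.13). Hnrnpk, whose protein binds C-rich RNA and takes part in the choice of the Neat1 3′ end (chr13:58391142-58403343, minus strand, GRCm38), had 71.4 RPKM (1348 reads) and 71.3 RPKM (1332 reads) in the KO-labelled and WT-labelled libraries. Its log2 ratio of reads was 0.00 (-0.11 to 0.11), and its sign turned to -0.01 when both libraries were rescaled to a median of 0. For counting error alone, the change from the WT-labelled level ran from -4.68% to 9.49% for Matr3 and from -7.23% to 8.10% for Hnrnpk. These limits do not cover any compression of abundant genes, which is taken up below. 

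**Figure D2:**
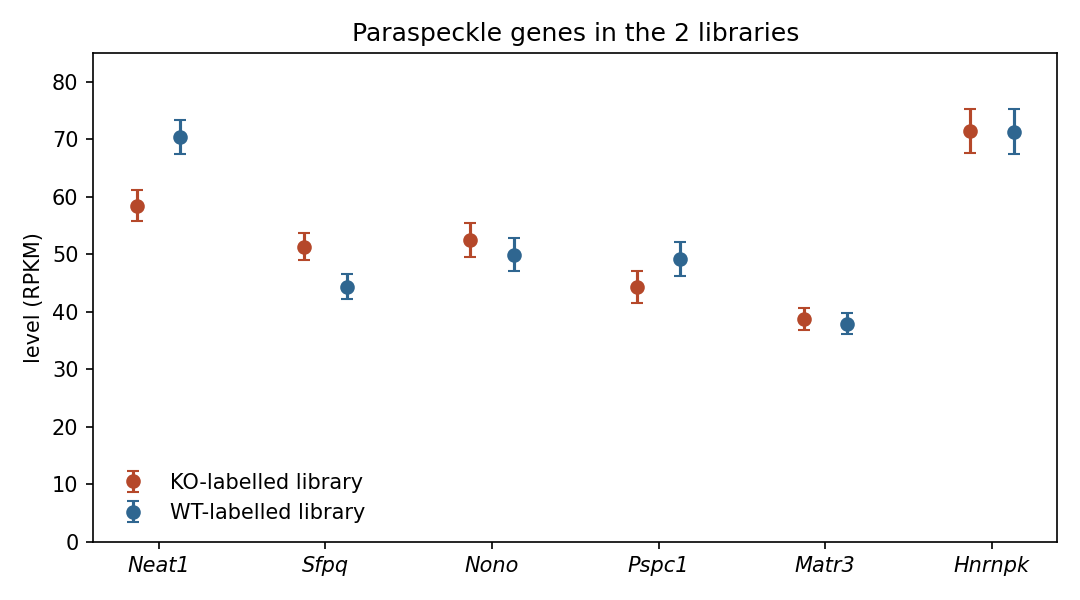
Level in RPKM (y axis, from 0) of the 6 genes in the KO-labelled and the WT-labelled library. Bars are exact 95% Poisson intervals of the reads; the Neat1 and Sfpq intervals of the 2 libraries lie apart, in opposite directions, and those of Hnrnpk nearly coincide.

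None of the 6 genes was 1.5-fold or 2-fold apart on the scale of RPKM + 1. Among all genes that reached 10 RPKM in either library, 6.41% were 2-fold apart or more, 2.22% with the KO-labelled value higher and 4.19% with it lower. At 1.5-fold the share was 12.2%, made up of 5.34% higher and 6.9% lower. The counting interval excluded 0 for 3 members (Neat1 and Pspc1 lower, Sfpq higher in the KO-labelled library). It did so for 55.4% of the 9949 such genes with recovered reads, so 3 of 6 is a share near the background. Of those genes 29.5% had an interval above 0 and 25.8% one below it. The median log2 ratio of the 6 members was 0.02, against 0.01 over the genes with at least 10 RPKM. 

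**Figure D3:**
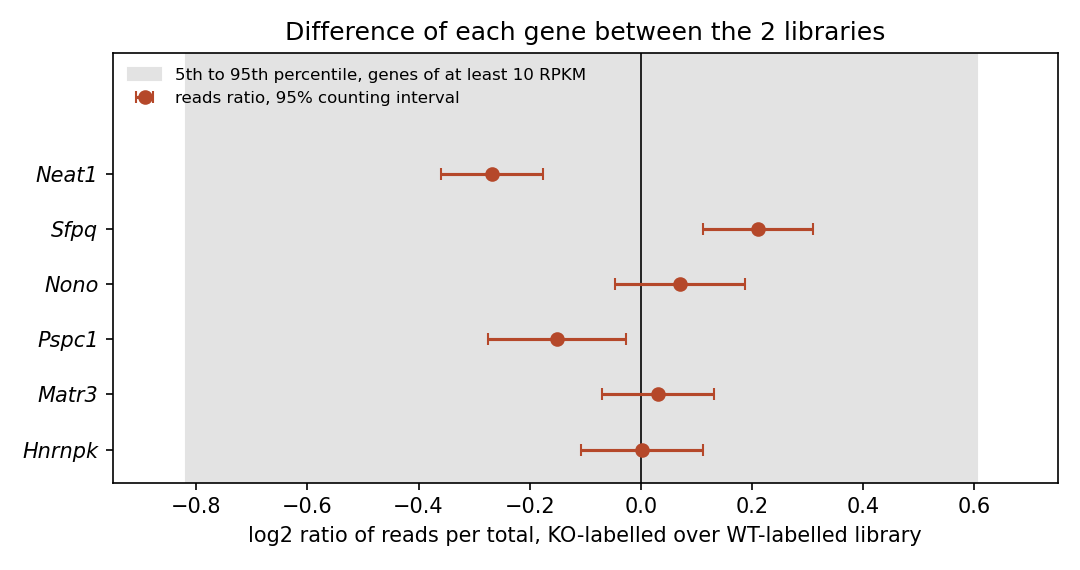
Log2 ratio of reads per library total, KO-labelled over WT-labelled, with exact 95% counting intervals (x axis) for each gene. The grey band runs from the 5th to the 95th percentile of the log2 ratio of RPKM + 1 (-0.82 to 0.60) over genes with at least 10 RPKM, and all 6 intervals lie inside it.

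The order of levels per length put Hnrnpk first and Matr3 last in both libraries. In the KO-labelled library Neat1 stood below Hnrnpk by a log2 level ratio of 0.29 (0.19 to 0.39). In the WT-labelled library the same pair was level (0.02, -0.08 to 0.12). Nono came next in both. Sfpq was level with Nono in the KO-labelled library (log2 level ratio of Nono to Sfpq 0.03, -0.07 to 0.14), followed by Pspc1. In the WT-labelled library Pspc1 was level with Nono (0.02, -0.10 to 0.14) and Sfpq came after it. The remaining neighbours in either order differed by more than their counting intervals.

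The proportions of members to each other can also be set side by side. Neat1 was at 1.14 times the level of Sfpq in the KO-labelled library and at 1.59 times in the WT-labelled library, a log2 difference of -0.48 with a counting standard error of 0.07. The ratio of Sfpq to Pspc1 was 1.16 in the KO-labelled and 0.902 in the WT-labelled library (log2 difference 0.36, counting standard error 0.08). Of the 15 pairs of members, 9 differed in proportion by more than 2 counting standard errors, each with Neat1, Sfpq or Pspc1 in the pair. So did 58.6% of all pairs of genes that reached 10 RPKM and had reads in both libraries, so the members' count is near the background. The DBHS genes together came to 148 RPKM in the KO-labelled and 143 RPKM in the WT-labelled library. Pspc1 made up 29.9% of that sum in the KO-labelled and 34.3% in the WT-labelled library, and Sfpq 34.7% and 30.9%. 

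All 6 genes were abundant, from the 76.2th to the 98.1th percentile of genes with at least 10 RPKM in the KO-labelled library and from the 74.3th to the 97.9th in the WT-labelled library. They held 0.370 to 0.681 reads per base in the KO-labelled library and 0.358 to 0.673 in the WT-labelled library, while no gene with recovered reads exceeded 1.19 and 0.997 reads per base. Values of abundant genes can be compressed by such a ceiling, and its part in these differences was not tested. The gene models also differ from GENCODE: the counted length was 2375 bases for Pspc1, 4472 for Matr3 and 1978 for Hnrnpk, that is 57.7%, 71.4% and 66.6% of the longest GENCODE transcript. For Nono (2468 bases) it was 96.3%, and for Sfpq (3705 bases) it was longer than any GENCODE transcript of the gene.

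**Figure D4:**
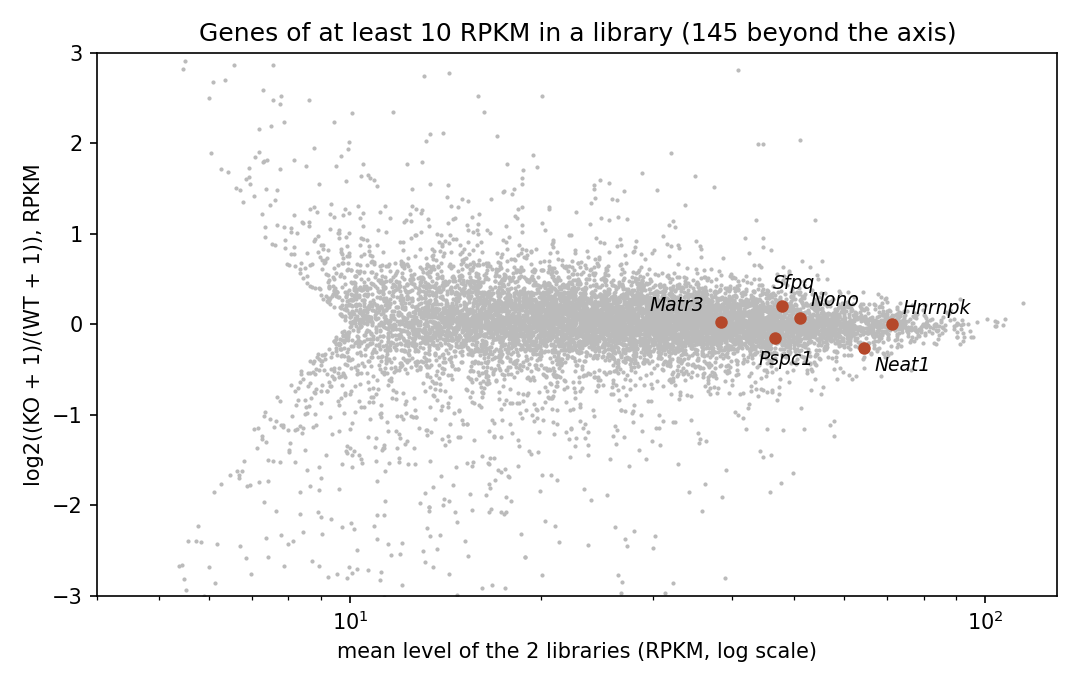
Log2 ratio of RPKM + 1, KO-labelled over WT-labelled (y axis), against the mean level of both libraries (x axis, RPKM, log scale) for the 10375 genes that reached 10 RPKM (grey; 145 lie beyond the axis). The 6 paraspeckle genes (labelled) sit at the abundant end and within the grey cloud, Neat1 lowest and Sfpq highest.

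Genes with values nearest to each member were sought by the distance of log2(RPKM + 1) over the 2 libraries among 12345 other genes. They were Ctsl, Oat and Sod3 for Neat1, Ccar1, Ccdc47 and Zcrb1 for Sfpq, and Golim4, Fam111a and Uba3 for Nono. For Pspc1 they were Sepn1, Rab5a and Atp6v0b, for Matr3 Fam92a, Mrps22 and Mrpl37, and for Hnrnpk Rhob, Cd24a and Dap. Over only 2 libraries the likeness is one of level, with distances of 0.0012 (Fam92a to Matr3) to 0.04 (Sod3 to Neat1).

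No edited site was listed in any of the 6 genes, among 110 sites in the KO-labelled library and 654 in the WT-labelled library. Chromosome 19, which carries Neat1, had 1 and 8 listed sites, each assigned to another gene and none intergenic. A site missing from the lists is not thereby unedited, since no site with fewer than 2 edited reads is listed. Sites were rare among genes of like abundance: of the genes at or above the lowest member's level, 10 of 2465 (0.406%) had a site in the KO-labelled library and 46 of 2666 (1.73%) in the WT-labelled library.

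Other proteins known from paraspeckles, mostly by work on human cells, were close as well. Of 28 such genes, all with at least 1 RPKM, 0 were 2-fold apart, where 11.9% of all 13867 genes at that level were (4.42% higher, 7.46% lower). The share was 6.41% among genes that reached 10 RPKM, as 27 of the 28 did. Their median log2 ratio of RPKM + 1 was 0.06, against 0.01 for all of those genes. The counting interval lay above 0 for 12 and below 0 for 3 of the 27 with recovered reads, where 28.1% and 27.5% of all such genes did, 55.7% together. The cold-inducible RNA-binding protein gene Cirbp had 27.4 RPKM in the KO-labelled and 17.3 RPKM in the WT-labelled library and was the 1 gene at least 1.5-fold apart. So were 21% of all genes that reached 1 RPKM (8.99% higher, 12% lower) and 12.2% of those that reached 10 RPKM. Taf15 (34.9 and 24.7 RPKM) came next and, like Ewsr1 (52.1 and 41.4 RPKM), encodes an RNA-binding protein. At the other end were Rbmx (27.1 and 30.5 RPKM), an X-linked hnRNP gene, and Fam98a (47.2 and 52.3 RPKM).

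Among proteins without which paraspeckles are known to be lost or disturbed in human cells, Rbm14 had 44.2 RPKM in the KO-labelled and 41.6 RPKM in the WT-labelled library (log2 reads interval -0.02 to 0.20). Dazap1 had 41.1 and 33.2 RPKM (0.16 to 0.46), and Hnrnph3 35.6 and 28.1 RPKM (0.18 to 0.50). The single listed site in the whole group lay in an intron of Akap8l (chromosome 17, 32473150, mm9), with the mismatch in 2 of 2 reads in each library, which cannot tell editing from a genomic difference.

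**Figure D5:**
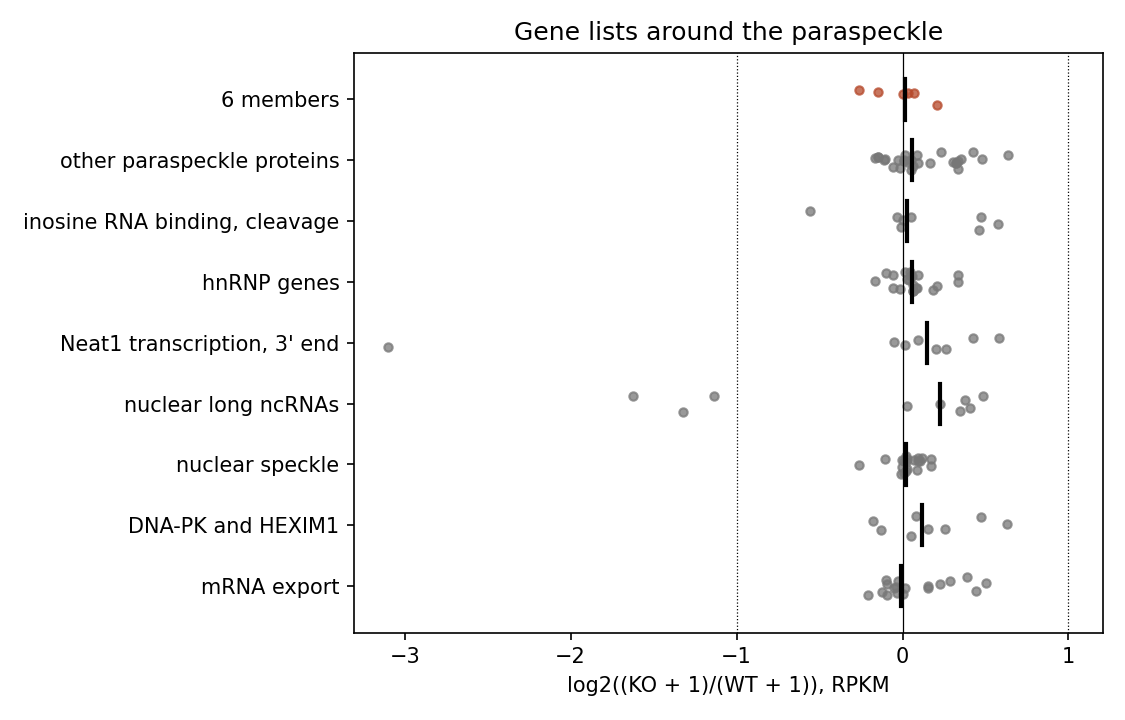
Log2 ratio of RPKM + 1, KO-labelled over WT-labelled (x axis), of each gene (points) by gene list, with the list's median (bar) and 2-fold limits (dotted). Most points lie within the limits, and those beyond them are Epas1 and the noncoding RNAs Miat, Rian and Meg3.

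Another list held 8 factors of the transcription and 3′ end choice of Neat1. Epas1, which encodes a hypoxia-inducible factor known to induce NEAT1 in human cells, had 1.84 RPKM (94 reads) in the KO-labelled and 23.4 RPKM (1181 reads) in the WT-labelled library. Its log2 ratio of reads had an interval of -3.99 to -3.36, and it was the 1 gene of 8 that was 2-fold apart, where 6.41% of all genes that reached 10 RPKM were. Its part in the Neat1 difference was not tested. The related Hif1a was close (47.1 and 49.0 RPKM). The p53 gene Trp53, whose product activates Neat1, had 38.5 and 33.4 RPKM, the heat shock factor gene Hsf1 28.8 and 23.8 RPKM, and Brca1 25.5 and 16.7 RPKM. Cleavage factor Im favours the short form: Cpsf6 had 37.0 RPKM in the KO-labelled and 27.4 RPKM in the WT-labelled library (interval 0.34 to 0.53), while its partner Nudt21 had 44.7 and 44.3 RPKM. Tardbp, encoding TDP-43, which acts on the same signal, had 38.3 and 35.8 RPKM. The median of the list was 0.15.

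Genes that bind, cleave or make inosine RNA had a median log2 ratio of 0.03 over 8 genes, with 0 of them 2-fold apart (6.41% of all genes that reached 10 RPKM). Hdlbp, encoding vigilin, an RNA-binding protein found with edited RNA, had 75.6 RPKM in the KO-labelled and 77.2 RPKM in the WT-labelled library. The nuclease-like Tudor protein gene Snd1 had 28.0 and 27.0 RPKM, and Endov, the endonuclease V gene whose product cuts at inosine, 12.0 and 8.34 RPKM (interval 0.34 to 0.70). Carm1, whose product methylates NONO and weakens its hold on such RNA, had 39.6 and 39.8 RPKM. The double-stranded RNA-binding Staufen genes had 45.7 and 45.6 RPKM (Stau1) and 12.8 and 8.24 RPKM (Stau2, interval 0.39 to 0.88). Adar, the gene of the other active editing enzyme, had 18.7 and 28.0 RPKM (interval -0.69 to -0.47). Of the 7 listed genes with recovered reads, the interval lay above 0 for 3 (Adarb1, Endov and Stau2) and below 0 for 1 (Adar). It did so for 29.5% and 25.8% of all genes that reached 10 RPKM and had recovered reads.

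RNA known to be held in the nucleus can be followed in amount but not in place, since whole-cell RNA was sequenced and fewer molecules in the nucleus cannot be told from fewer in the cytoplasm. Slc7a2, which gives rise in mouse to Ctn RNA, the textbook case of an edited RNA in paraspeckles, had 28.2 RPKM (2113 reads) in the KO-labelled and 41.0 RPKM (3041 reads) in the WT-labelled library. This level is for the whole gene and does not tell Ctn RNA from other Slc7a2 transcripts. Slc7a2 had 1 and 10 listed 3′ UTR sites, and the only shared one (chromosome 8, 42003183, mm9) was at 12.0% of 25 reads and 15.9% of 44 reads. Fisher's exact test, two-sided and between these libraries, gave an adjusted p = 0.780. With 25 and 44 reads, this does not show that editing at the site was unchanged. The other Slc7a2 sites of the WT-labelled list were missing from the KO-labelled list and could not be tested. By comparison, that test passed 60% of the 55 sites found in both lists at a depth of 10 reads or more. Nicn1, the other gene listed for this role, had 25.1 and 27.9 RPKM and no listed site. Its editing or retention in these mouse cells is therefore not shown.

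Dense editing of a 3′ UTR is the feature the retention complex is known to recognise. The WT-labelled list had 24 genes with at least 5 such sites, and 23 could be compared. Their median log2 ratio was 0.05, against 0.01 over all genes that reached 1 RPKM. The KO-labelled value was the higher for 14 and the lower for 9. The counting interval lay above 0 for 8 and below 0 for 7 of the 21 with recovered reads. It did so for 28.1% and 27.5% of all genes that reached 1 RPKM and had recovered reads. Of these genes, 0 were 2-fold apart (11.9% of all genes that reached 1 RPKM, 6.41% of those that reached 10 RPKM). Beside Slc7a2, the lowest were Car5b (20.3 RPKM in the KO-labelled and 29.2 RPKM in the WT-labelled library) and Gla (16.4 and 22.7 RPKM), and the highest were Jmjd4 (10.7 and 8.48 RPKM) and Rpa1 (59.6 and 50.3 RPKM). The genes with many edited sites had differences of both signs. They entered the set by sites of the WT-labelled list alone, so it may favour genes well covered in that library. The balance of signs therefore says nothing on retention.

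Other long noncoding RNAs, most of them known from the nucleus, went both ways. Malat1, the nuclear speckle RNA whose gene lies 22036 bases from that of Neat1 on the same strand, had 60.5 RPKM (4032 reads) in the KO-labelled and 46.4 RPKM (3058 reads) in the WT-labelled library. Its interval of the log2 reads ratio was 0.32 to 0.45, opposite in sign to that of its neighbour. Xist, which coats the inactive X chromosome, had 55.0 and 39.0 RPKM, Gas5 45.9 and 34.4 RPKM, and Tug1 34.7 and 34.0 RPKM. The imprinted noncoding RNA Rian had 6.56 RPKM in the KO-labelled and 17.9 RPKM in the WT-labelled library. With Meg3 of the same imprinted locus (1.55 and 4.61 RPKM) and Miat (0.0957 and 2.38 RPKM, 8 and 197 reads) it made up the 3 of 9 compared RNAs that were 2-fold lower or more, where 7.46% of all genes that reached 1 RPKM were. With a pseudocount of 5 in place of 1, 0 of the 9 were 2-fold apart. Only Rian of these 3 reached 10 RPKM in a library.

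Genes of neighbouring processes served as a frame, beside 6.41% of all genes that reached 10 RPKM being 2-fold apart. Of the hnRNP genes, 0 of 21 were 2-fold apart (median 0.06), from Hnrnpc (57.7 RPKM in the KO-labelled and 64.8 RPKM in the WT-labelled library) and Hnrnph2 (50.1 and 53.7 RPKM) to Hnrnpa1 (54.1 and 42.8 RPKM) and Hnrnph3. Of the nuclear speckle genes, 0 of 20 were 2-fold apart (median 0.02), from Rnps1 (38.3 and 46.0 RPKM) and Son (44.9 and 48.4 RPKM) to Srsf6 (52.8 and 46.7 RPKM) and Sf3a1 (25.5 and 22.5 RPKM). Of the mRNA export genes, 0 of 18 were 2-fold apart (median -0.01), from Thoc6 (35.3 and 41.0 RPKM) and Thoc1 (17.01 and 18.6 RPKM) to Mcm3ap (25.1 and 18.2 RPKM) and Thoc5 (12.7 and 8.67 RPKM).

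A further list held genes around DNA-dependent protein kinase and HEXIM1, whose complex is known to bind paraspeckle proteins. Not all of the listed genes encode parts of that complex. Of the 8 genes, 0 were 2-fold apart (median 0.12), where 11.9% of all genes that reached 1 RPKM were. The share was 6.41% among genes that reached 10 RPKM, as 7 of the 8 did. Xrcc6, encoding the Ku70 subunit, had 26.1 RPKM in the KO-labelled and 18.5 RPKM in the WT-labelled library, its partner Xrcc5 10.5 and 9.32 RPKM, and the catalytic subunit gene Prkdc 4.06 and 4.71 RPKM. Hexim1 had 33.2 and 27.6 RPKM and the cyclin gene Ccnt1 35.2 and 22.3 RPKM. Ccnt1 was the 1 gene of this list past 1.5-fold, where 21% of all genes that reached 1 RPKM and 12.2% of those that reached 10 RPKM were. Cdk9 (31.1 and 30.02 RPKM), Prmt5 (46.6 and 44.0 RPKM) and Larp7 (43.6 and 47.8 RPKM) had intervals that hold 0. So did Xrcc5 (-0.09 to 0.44).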

How the data were processed

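Each library was placed by its title. Per the submitters' processing notes, STAR 2.4.0d, SAMtools and the mm9 build were used, with no roles given. The authors deposited 1 table with RPKM values, a log2 fold change and a GFOLD log2 value per gene, per the file headers; its empirical FDR stands at 1 throughout and was left out. The deposited editing lists give, per the file headers, the count of reads and of mismatches per site and the level as a fraction. The sources used here do not give gene models, strand use, duplicate treatment or the editing caller, so reads shared with pseudogenes or overlapping genes cannot be followed.

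Whole reads, lengths and library totals were recovered from the 6 printed digits of RPKM and fold change: 17113 of 17981 genes above 0 (95.2%) had 1 solution, and the others had several and got no interval. The method was run on simulated Poisson counts turned into RPKM by the same formula, which checks the arithmetic only. The simulation held no ceiling on reads per base and no repeated reads. RPKM stayed the measurement. Ratios are KO over WT as log2 of RPKM + 1 for genes reaching 1 RPKM in either library. Intervals are exact 95% Clopper-Pearson intervals on reads (Poisson for levels), and since no molecular identifiers were used, reads may repeat a molecule. Genes got no p-value, there being 1 library per genotype. Shared sites with at least 10 reads in each library had Fisher's exact test, Benjamini-Hochberg adjusted. Named genes are the members, Adarb1, Adar, the 2 highest and 2 lowest of each list with at least 10 RPKM, all genes of lists under 9, and the 3 nearest to each member; Dazap1, Rbm14, Ewsr1, Malat1, Meg3, Miat and the genes with many sites were added after their values were seen. Members and lists were chosen with earlier results of these data known. Transcripts, positions and sequences are from GENCODE M21 (GRCm38); sites keep mm9 positions. Python 3.11.15, SciPy 1.17.1 and statsmodels 0.14.6 were used.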

Additional observations from a re-analysis of the deposited data

How the results depend on the processing

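Other pseudocounts (0.1 and 5), rescaling to a median of 0 and the authors' own log2 fold change kept each member's log2 ratio inside its counting interval, between -0.28 and -0.22 for Neat1 and between 0.19 and 0.26 for Sfpq. Under the authors' GFOLD value Neat1 was at -0.11 and Pspc1 at 0, outside those intervals, which is what shrinkage toward 0 does; Nono, Matr3 and Hnrnpk were also at 0. No member was 2-fold apart under any of these settings or either filter. The long noncoding RNAs past 2-fold numbered 3, but 0 with a pseudocount of 5 and 1 with a floor of 10 RPKM, which removes low genes. With no read minimum, 2 sites of listed genes in place of 1 would enter the test. The median of genes with many 3′ UTR sites was 0.01 with 3 or more and 0.10 with 10 or more sites. Of 176 alternative values, 169 stayed within the limit set for them. The limit was the counting interval for a member and 1.5 times the value for a count. For a list median it was the typical counting error of a single gene, a wider limit than the error of a median. Many settings alter abundant genes little, so the total is a weak check. With GFOLD, 2 list medians also moved, to 0 for the noncoding RNAs and -0.20 for Slc7a2 and Nicn1. No paired analysis was possible because there is 1 library per genotype, and leaving out a library was impossible for the same reason.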
